A study of Mus musculus with 9 samples.

Results

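The genes encoding the proteins of the cytosolic ribosome were followed through 9 RNA-seq libraries of mouse erythroid progenitors. Members were taken by symbol: every name that begins with Rpl or Rps and a digit, together with Rplp0, Rplp1, Rplp2, Rpsa and Fau, leaving out the S6 kinases, pseudogene symbols and predicted genes. This gave 88 genes of 19840 names in the files. Of these, 78 are core ribosomal proteins, 46 of the large (60S) and 32 of the small (40S) subunit. The other 10 are paralogs of a core protein or, as with Rps19bp1, a gene that the symbol pattern takes although it encodes a binding partner. At least 1 normalised RPKM (read counts scaled for transcript length and library size, further divided by a scaling factor for each library) was reached in some library by 86 of the 88.

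A ribosome is built from ribosomal RNA and a single copy of most ribosomal proteins, so a cell needs these proteins in nearly equal numbers. Their messenger RNAs are among the most abundant of a growing cell, and many begin with a run of pyrimidines, the 5′ terminal oligopyrimidine (TOP) tract, through which mTORC1 controls their translation. Red cell precursors depend on a full supply: inherited loss of a single copy of a ribosomal protein gene such as RPS19 causes Diamond-Blackfan anemia, in which erythroid progenitors fail and which is treated with glucocorticoids. Ribosomal protein genes have also left many processed pseudogenes, copies of the spliced messenger RNA inserted elsewhere in the genome.

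All cells came from fetal livers of C57BL/6 embryos at embryonic day 13.5 to 14.5. Libraries of 3 populations were made without culture: BFU-E, the early burst-forming progenitor (Kit-positive, lineage-negative cells in the lowest 10% for the transferrin receptor CD71); CFU-E, the later colony-forming progenitor (the highest 20% for CD71); and Ter119+ erythroblasts, which lack Kit. The 6 cultured libraries were BFU-E gated on low CD71 (the CD71 sort) or on low CD71 together with low CD24a (the CD71/CD24a sort), held 4 h in medium with stem cell factor at 100 ng/mL, IGF-1 at 40 ng/mL and erythropoietin at 2 U/mL and then treated for 4 h. The arms of the CD71 sort were water and the synthetic glucocorticoid dexamethasone (Dex) at 100 nM. Those of the CD71/CD24a sort were water, the same Dex dose, DMOG at 333 µM (dimethyloxalylglycine, which stabilises HIF by inhibiting prolyl hydroxylases), and both agents together. Every condition was a single library, and p-values between cultured libraries therefore measure only the spread between these libraries.

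Depth, as recovered from the values, was 11.85 to 52.75 M reads. Of 10 erythroid markers, 9 were in the files, and all 9 stood at 1 or more normalised RPKM in each library except Dex with DMOG, where 8 did. Their summed level was 439 to 1703 in the progenitors and 210563 in Ter119+. The sum over 10 neutrophil and mast cell markers was 205 in Ter119+, 100.2 in fresh BFU-E and 4.87 to 27.0 elsewhere, and the sum over 9 macrophage markers was 47.9 in Ter119+ and 0.799 to 7.49 elsewhere. Their part in the results below was not tested.

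Because copies of a gene can take or share its reads, the opening of the coding part is shown for 1 member that stands mostly alone in the genome, Rpl8, and for 4 with close copies, each followed by a copy. Capitals in a member mark bases that lie in no 32-base word found at another gene or pseudogene, and capitals in a copy mark bases that differ from the member. Each run is 60 bases, 5′ to 3′, from GENCODE transcripts of GRCm38, and a span longer than that crosses an intron. Rpl8 is at chr15:76904313-76904372 (+), Rps27 at chr3:90213248-90213615 (-), Rpl12 at chr2:32961803-32962071 (+), Rpl5 at chr5:107900644-107901926 (+) and Rps19 at chr7:24885136-24885195 (+). The copies are Gm17241 at chr15:99706754-99706813 (-), Gm10275 at chr10:29699231-29699290 (-), Gm15500 at chr7:114706104-114706163 (-) and Rps19-ps6 at chr12:110898114-110898173 (+).
Rpl8: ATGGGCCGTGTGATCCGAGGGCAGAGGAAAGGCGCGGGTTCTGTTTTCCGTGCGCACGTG
Rps27: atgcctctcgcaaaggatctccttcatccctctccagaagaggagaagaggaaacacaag
Gm17241: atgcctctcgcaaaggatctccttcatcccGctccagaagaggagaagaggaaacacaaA
Rpl12: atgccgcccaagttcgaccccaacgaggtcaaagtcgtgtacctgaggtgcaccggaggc
Gm10275: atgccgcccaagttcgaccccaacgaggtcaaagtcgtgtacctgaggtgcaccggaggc
Rpl5: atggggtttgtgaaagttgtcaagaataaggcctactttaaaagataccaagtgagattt
Gm15500: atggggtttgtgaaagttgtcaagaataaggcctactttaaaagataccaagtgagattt
Rps19: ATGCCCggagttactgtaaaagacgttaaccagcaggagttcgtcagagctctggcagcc
Rps19-ps6: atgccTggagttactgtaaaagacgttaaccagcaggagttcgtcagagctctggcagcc
Over the whole coding part, Gm10275 had 0 mismatches to Rpl12 in 495 bases and Gm15500 had 0 to Rpl5 in 891 bases. Gm17241 differed from Rps27 at 2 of 252 bases and Rps19-ps6 from Rps19 at 5 of 435. Copies were sought among pseudogenes of 1 exon, with 1 chromosome left out, so the counts are minimums. A full-length pseudogene copy was found 8 times for Rpl12, 5 times each for Rps27 and Rps19 and 4 times for Rpl5. In Rpl8, 14.5% of coding bases were found elsewhere.

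A TOP tract lies at the start of transcription. The annotated start is shown for 3 members with such a run there and for Rpl5, which has next to none at the start used. Each run covers 20 bases before and 20 from the annotated start, from the RefSeq promoter table (GRCm38.p6), with the pyrimidine run over the start in capitals. Fau is at chr19:6057927-6057966 (+), Rplp2 at chr7:141447631-141447670 (+), Rps27 at chr3:90213629-90213668 (-) and Rpl5 at chr5:107900508-107900547 (+).
Fau: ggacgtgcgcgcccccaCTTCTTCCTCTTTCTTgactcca
Rplp2: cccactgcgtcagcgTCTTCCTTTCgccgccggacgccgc
Rps27: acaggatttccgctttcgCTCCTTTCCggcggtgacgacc
Rpl5: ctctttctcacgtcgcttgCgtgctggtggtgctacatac
The runs were 16, 10 and 9 bases long, and 1 base in Rpl5. In GENCODE the Rpl5 gene begins at chr5:107900502, ahead of the bases printed, so its run depends on the start used. Rpl35a has 3 annotated starts, with runs of 4, 13 and 0 bases. By symbol, 67 of the 88 members matched the table. A run of at least 8 C or T over the start base or the base before it was found in 21 of the 67 (31.3%), against 6.30% of the 27025 genes in the table. The word CCGGAAG, on either strand from 250 bases before to 50 after the start, was in 38.8% of the members and in 9.93% of all genes, and TATAAA in 11.9% and 15.7%. CTTTCC, on the coding strand from 15 before to 20 after the start, was in 14.9% of the members and 1.95% of all genes, and it can overlap the C or T run. There were 10 such searches, and a match describes letters only.

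Listed levels spread widely over proteins that the ribosome holds in nearly equal numbers. Rpl8, a core protein of the 60S subunit, had the highest mean over the 9 libraries, 2080 normalised RPKM, and the stalk protein Rplp0 stood at 1295. The lowest means were those of Rps23rg1 (0.0653), Rpl3l (0.0685), a paralog of Rpl3 known from striated muscle, and Rpl39l (0.498), a paralog of Rpl39 known from testis. Among core members the lowest were Rpl17 (4.00), Rpl21 (4.13) and Rpl23a (5.80). In fresh BFU-E alone, core members ran from 1.5 for Rps27 to 2961 for Rpl8. The 10 highest members held 50.3% to 65.1% of the members' summed RPKM in each library.

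Level went with how much of the coding part occurs elsewhere. Of the 78 core members, 14 had under 80% of their coding words at another gene or pseudogene, and their median mean level was 883, with all 14 at 100 or more. For the 30 with 80% or more, but not all, the median was 119, and 18 reached 100. For the 34 with every word shared it was 20.4, and 2 reached 100, among them Rpl41 at 648. The rank correlation of shared coding sequence with level over the 78 core members lay between -0.849 and -0.730 in the 9 libraries. The members share each library and the same pseudogene annotation, so this is a description. Measured over whole transcripts, untranslated regions included, it was weaker, -0.336 to -0.258, and no core member had every word shared. Over all 88 members it was -0.597 to -0.445 by the coding part. The coding-part measure and the classes at 80% and 100% were chosen after values were seen. How reads with several matches were counted is not given in the sources used here, so the level of a member with close copies is uncertain. Its part in the pattern was not tested.

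**Figure D1:**
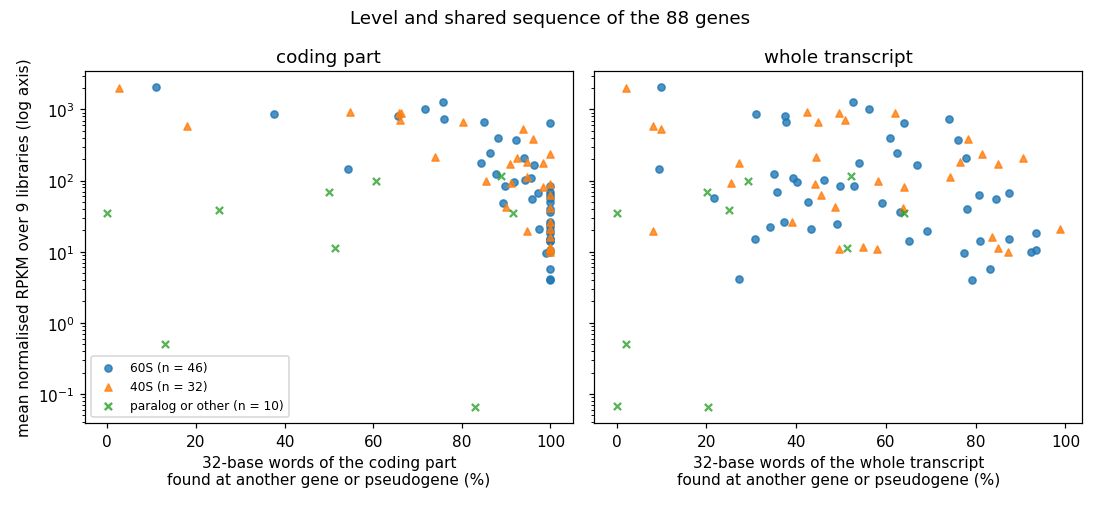
Mean normalised RPKM over the 9 libraries (log axis) of the 88 genes against the percent of 32-base words found at another gene or pseudogene, for the coding part (left) and the whole transcript (right), with core members and paralogs marked. In the left panel the core members with every coding word shared reach down to 4.00 (Rpl17), while all 14 core members under 80% stand above 100.

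The members together took 7.93% of summed RPKM in fresh BFU-E, 7.49% in CFU-E and 1.66% in Ter119+. Globin transcripts made up 38.1% of the Ter119+ library, and with globin left out of the total the members' share there was 2.68%, against 7.50% in CFU-E. In the CD71 sort the share was 8.36% with water and 7.89% with Dex. In the CD71/CD24a sort it was 6.83% with water, 6.49% with Dex, 6.86% with DMOG and 6.12% with Dex and DMOG. The order of the CD71 pair turned when only members under 80% shared were summed, with 4.78% for water and 5.05% for Dex. A lower share in a bulk sample can come from less RNA of the members, more RNA of other genes or a different mix of cells. These cannot be told apart.

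**Figure D2:**
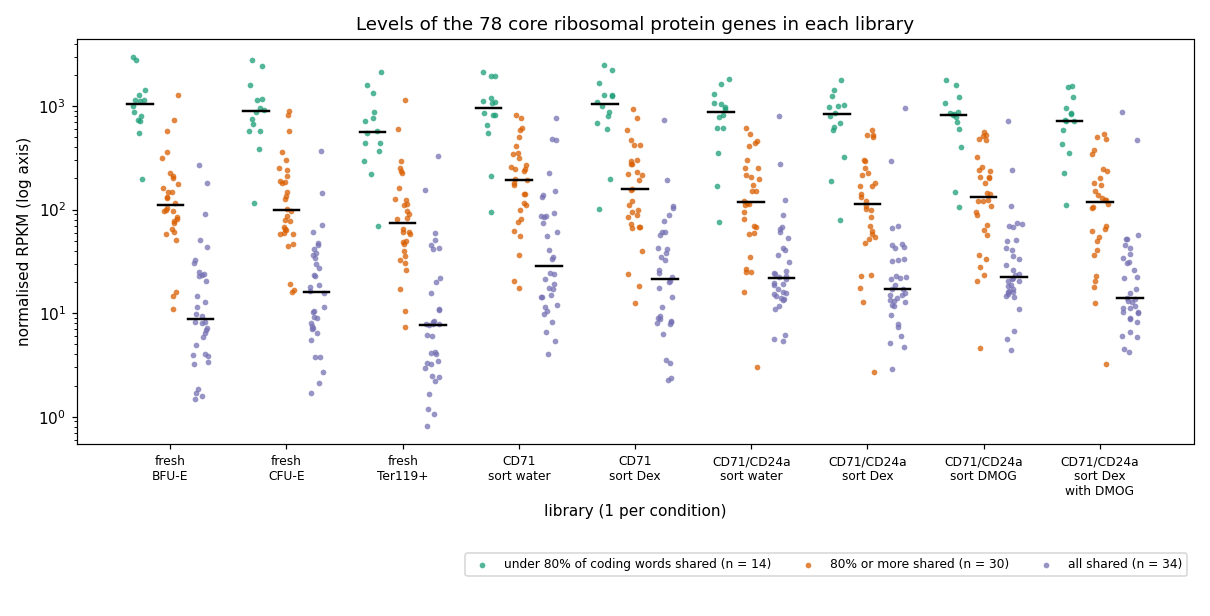
Normalised RPKM (log axis) of the 78 core members in each of the 9 libraries, 1 point per gene and library. Points are coloured by shared coding words, with bars at the median of each class. The core median is highest in CD71 sort water (135) and lowest in Ter119+ (47.7).

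Values below are in the order fresh BFU-E, CFU-E, Ter119+, then the CD71 sort (water, Dex), then the CD71/CD24a sort (water, Dex, DMOG, both). The acidic stalk, which recruits translation factors, is formed by Rplp0, Rplp1 and Rplp2. Rplp0 stood at 1419, 1597, 1337, 1937, 1682, 1046, 858, 1068 and 714 normalised RPKM. Rplp1 stood at 885, 1153, 772, 1075, 1285, 350, 325, 405 and 356. Rplp2 stood at 1277, 897, 1147, 760, 769, 254, 304, 260 and 246. Between the sorts without DMOG, limma called all 3 lower in the CD71/CD24a sort, as it did 29 of 85 members and 25% of all genes.

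Rpl5 and Rpl11 bind 5S ribosomal RNA, and the particle they form restrains Mdm2 when ribosome assembly fails. Rpl5 stood at 1.58, 3.78, 0.815, 134, 8.47, 22.2, 17.2, 23.9 and 11.7 normalised RPKM. Rpl11 stood at 14.7, 18.1, 11, 40.9, 37.9, 53, 45.2, 50.4 and 52.6. The 2 partners did not run in parallel: CD71 sort water was the highest library for Rpl5 and the fifth for Rpl11. Every coding word of both genes is shared.

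Rps19 is the gene most often mutated in Diamond-Blackfan anemia. It stood at 96.7, 58.4, 83.3, 237, 110.5, 80.8, 54.3, 89.2 and 69.1 normalised RPKM. Rps26, another of these genes, stood at 735, 817, 604, 821, 937, 462, 524, 564 and 533, without the peak in CD71 sort water. Rps24 stood at 58.5, 67.7, 40, 141, 88, 95, 108, 122 and 113. Rpl35a stood at 99.8, 46.4, 46.9, 36.2, 39.9, 34.8, 47.9, 36.2 and 54.5, with fresh BFU-E above all the others. Rps6, the substrate of S6 kinase, ran from 2.93 in Ter119+ to 18.8 in CD71/CD24a sort water.

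Rps27a and Fau are made as fusions, with ubiquitin and with a ubiquitin-like protein. Rps27a ran from 3.48 in Ter119+ to 14.8 in CD71/CD24a sort water. Fau stood at 11.4, 27.4, 19.9, 223, 42.0, 13.4, 7.93, 16.2 and 8.81 normalised RPKM. Rpl10, which helps to join the subunits, ran from 1.64 in Ter119+ to 15.4 with DMOG. Rpl22, known also for a part in lymphocyte development, stood at 198, 116, 69.4, 95.6, 101, 169, 187, 147 and 228. Its paralog Rpl22l1 stood at 7.38, 11, 15.1, 29.8, 21.8, 66.4, 54.2, 49.7 and 57.2.

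From BFU-E to CFU-E, few members differed 2-fold. With 1 library a side there is no test. A size rule was used instead, 2-fold or more, which is 1 in units of log2(normalised RPKM + 1), among genes at 1 or more in either library. The added 1 makes differences of low genes look smaller. By this rule 4 of 86 members differed, against 15.6% of all genes. There were 2 higher in CFU-E (3.32% of all genes) and 2 lower (12.3%). With a pseudocount of 0.1 in place of 1, 5 were higher and 2 lower. Rps13, a 40S protein, was higher (6.37 to 15.6, log2 difference 1.17), as was Fau (11.4 to 27.4, 1.20). Rpl35a was lower (99.8 to 46.4, -1.09), as was Rps7, a 40S protein that can bind Mdm2 (131 to 62.9, -1.05). Rps12 (0.90) came next above and Rpl22 (-0.76) next below, both short of 2-fold. Exact 95% intervals of the ratio from recovered reads were 1.90 to 3.11 for Fau and 0.409 to 0.528 for Rpl35a, and they cover counting error only. The members' median difference was 0.15, against -0.08 over all genes, and it was 0.45 for members with every coding word shared and -0.20 for those under 80%.

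From CFU-E to Ter119+, the members stood lower as a group, while the genes that build ribosomes stood lower by more. By the size rule 22 of 86 members were lower and 1 was higher, against 28.8% and 22.6% of all genes (51.4% either way), so the count lower is near the background. Their median difference was -0.71, against -0.21 over all genes, and 77 of the 86 lay below 0. The lowest were Rpl10a of the 60S subunit (45.3 to 7.78, -2.40), Rps12 of the 40S subunit (18.6 to 3.22, -2.21) and Rpl12, which sits at the base of the stalk (36.5 to 7.89, -2.08). Rpl23a, a protein at the exit of the peptide tunnel, was the only member 2-fold higher (3.79 to 10.8, 1.29). Rps19 (58.4 to 83.3, 0.50), Rpl22l1 (11 to 15.1, 0.43) and Rplp2 (897 to 1147, 0.35) were above 0 but short of 2-fold. The 20 members under 80% shared all lay below 0, with a median of -0.76 and 4 lower by 2-fold. The scaling factor of Ter119+ was 0.419. Without factors the median of all genes moved to -1.31 and that of the members to -1.96, and 82 of the 86 were 2-fold lower.

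The other genes of translation were set beside the members. Of 20 genes of ribosome biogenesis and RNA polymerase I, 18 were 2-fold lower in Ter119+ (median -2.73), among them Nop2 (95.9 to 12.5), which modifies 28S ribosomal RNA, Nop58 (83.1 to 13.1) and fibrillarin, Fbl (45.7 to 6.81), both of the box C/D particles. Ubtf, a factor of RNA polymerase I, stood at 89.5 in CFU-E and 130.1 in Ter119+. Of 16 escort and assembly proteins 12 were lower (median -1.39), for example Heatr3 (40.4 to 3.51), which brings Rpl5 into the nucleus. Of 77 mitochondrial ribosomal proteins 34 were lower and 0 higher (median -0.93). Of 19 ribosome partners and TOP genes 10 were lower and 3 higher (median -1.02): Npm1, a nucleolar chaperone, went from 249 to 17.7 and Tpt1 from 189 to 450. Ribosome rescue and recycling went the other way, with 4 of 11 higher, 1 lower and a median of 0.89. Ube2o, which ubiquitinates ribosomal proteins in maturing red cells, stood at 16.7 in CFU-E and 835 in Ter119+. Gtpbp2, a rescue factor of stalled ribosomes, stood at 21.6 and 477. Pelo (31.7 and 64.7) and Hbs1l (27.5 and 59.2), which split stalled ribosomes, were higher, and Abce1, the recycling ATPase, was lower (59.8 and 20.0). Without the scaling factors the median of this list was -0.47, with 2 higher and 5 lower.

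**Figure D3:**
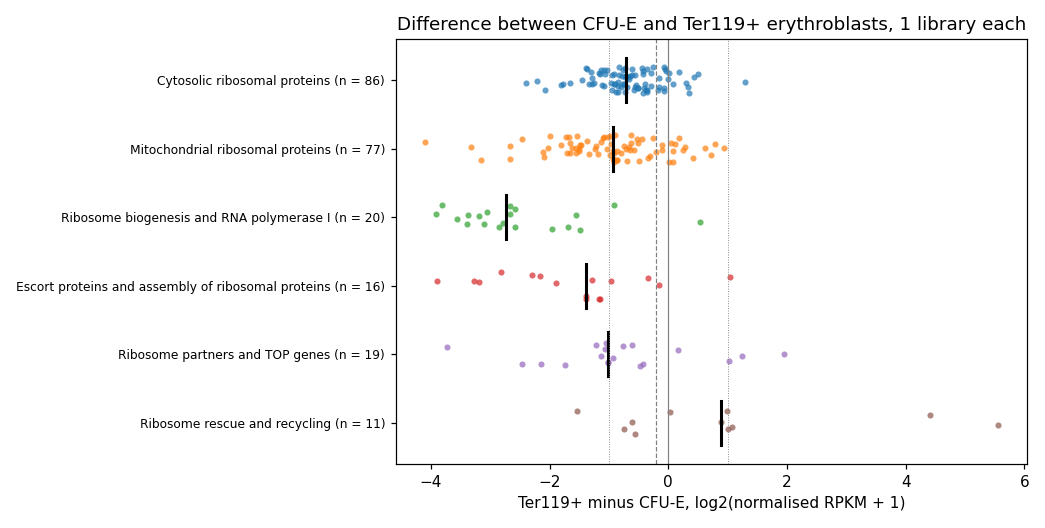
Ter119+ minus CFU-E on the scale of log2(normalised RPKM + 1), 1 point per gene, for the cytosolic ribosomal proteins and 5 other lists, with bars at the medians, dotted lines at 2-fold and a dashed line at the median of all genes. Biogenesis genes (median -2.73) lie furthest to the left and rescue genes (median 0.89) to the right.

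In CD71 sort water a set of members with close copies stood far above every other library. Rps27, a zinc-finger protein of the 40S subunit, stood at 1.5, 1.70, 2.39, 151, 2.38, 11.6, 2.89, 10.9 and 4.24 normalised RPKM. Rpl12 stood at 30.7, 36.5, 7.89, 482, 42.4, 40.9, 33.4, 43.0 and 26.3. Rpl31, a protein at the tunnel exit, stood at 9.76, 16.6, 6.19, 85.1, 8.69, 19.6, 18.5, 20.2 and 17.2. In each, the single library of water-treated CD71-sorted cells was the highest, and it did not overlap the other 8. Of 86 members, 9 were at least 2-fold above all 8 other libraries there: Rps27 (13.0-fold above the next library), Rpl12 (11.2), Rpl5 (5.59), Fau (5.32), Rpl31 (4.20), Rpl35 (2.35), Rps19 (2.14), Rpl3 (2.14) and Rpl37a (2.01). Among genes that are not members, 0.616% did so. Each of the 9 had at least 80% of its coding words shared, but so had most members: 33 of the 88 had 80% or more, but not all, and another 34 had every word shared. Of 87 other genes with every coding word shared, 27 (31.0%) stood out in this library in the same way, so the pattern was not limited to ribosomal proteins. In the remaining 8 libraries, 1 member met this rule: Rpl24, a 60S protein, at 56.9 with Dex and DMOG. Among genes that are not members, 0.0664% met it in that library. The share was 4.64% in fresh BFU-E, 16.1% in Ter119+ and 0.503% or less in the rest of the 8.

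Within the CD71 pair, 13 of 85 members were 2-fold lower with Dex and 0 higher, against 1.41% and 0.84% of all genes (2.25% either way). Rps27 went from 151 to 2.38 (log2 difference -5.49), Rpl5 from 134 to 8.47 (-3.83) and Rpl12 from 482 to 42.4 (-3.48). By shared coding sequence, the counts lower were 0 of 19 members under 80%, 5 of 32 at 80% or more and 8 of 34 with all words shared. For other genes the shares lower were 0.474%, 18.9% and 36.9% in the same classes. Rpl24 (0.55), Rps19bp1 (0.51) and Rps14 (0.29) stood highest with Dex. Depth was 11.85 M reads for water and 12.9 M for Dex, and the summed erythroid markers were 1703 and 1015. Of these markers, Hbb-bt stood at 822 and 371, Hba-a1 at 281 and 98.7 and Tfrc at 201 and 114. Klf1 (165 and 187), Epor (80.5 and 93.3) and Alas2 (5.57 and 7.67) were higher with Dex. Of coding words, 93.9% in Hbb-bt and 91.9% in Hba-a1 are shared. The cause of the pattern among the members was not tested.

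**Figure D4:**
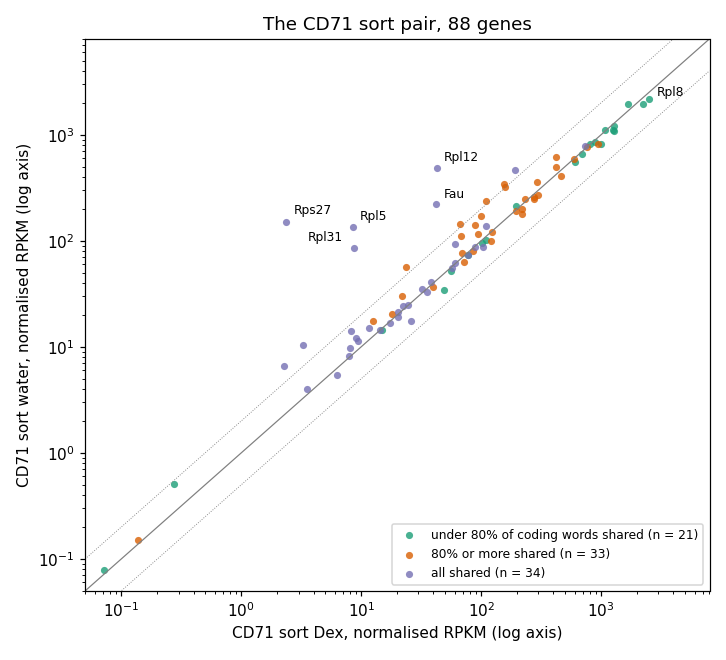
Normalised RPKM of the 88 genes in CD71 sort water against CD71 sort Dex (both axes log), coloured by shared coding words, with the line of equality and dotted lines at 2-fold. The members under 80% shared lie along equality, and Rps27, Rpl5, Rpl12, Rpl31 and Fau lie far above it.

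Against fresh BFU-E, CD71 sort water had 32 of 85 members 2-fold higher and 4 lower, against 6.27% and 9.06% of all genes (15.3% either way). Rps27 (1.5 to 151, log2 difference 5.93), Rpl5 (1.58 to 134, 5.71) and Fau (11.4 to 223, 4.18) stood highest, and Rpl35a (99.8 to 36.2, -1.44), Rps21 (547 to 212, -1.36) and Rps16 (181 to 87.0, -1.05) lowest. Of the members under 80% shared, 0 of 19 were higher and 2 lower. The Dex arm gave 19 higher and 3 lower than the same fresh library, against 3.82% and 7.71% of all genes (11.5% either way). Those higher were 0 of 19 members under 80% shared, 4 of 32 at 80% or more and 15 of 34 with every word shared. For other genes the shares higher were 2.98%, 24.5% and 24.6% in the same classes. Here Rpl28 (20.5 to 104, 2.29), Rpsa, the laminin receptor precursor of the 40S subunit (25.0 to 109, 2.08), and Rpl5 (1.58 to 8.47, 1.88) led, and Rps21 (-1.47), Rpl35a (-1.30) and Rps16 (-1.03) were lowest. Both comparisons share the fresh library.

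With dexamethasone the members' median lay slightly below that of all genes, and limma called a single member. The model held the culture pair and Dex over the 6 cultured libraries, with 9535 genes tested. At a Benjamini-Hochberg adjusted p under 0.05, 1 of 85 members was called, and it was lower, against 2.02% of all genes (0.629% lower, 1.39% higher). This was Rpl39, a short 60S protein of the exit tunnel. Its level was 92.2 with water and 60.9 with Dex after the CD71 sort, 65.6 and 43.5 after the CD71/CD24a sort, and 67.6 and 52.3 in the presence of DMOG. The level was lower with Dex in all 3 pairs. By limma the difference was -0.51 on the log2 scale (SE 0.076, adjusted p = 0.031). Rpl39 was not called without the CD71/CD24a pair (adjusted p = 0.18 by limma), nor did the fit without the pair term or that with no filter on low values call any member.

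The members' median Dex difference was -0.22, against -0.02 over all genes, and 67 of the 85 lay below 0. At an unadjusted p under 0.05 by limma there were 31 of 85 members (36.5%), against 16.2% of all genes. The median was 0.04 for members under 80% shared, -0.21 for those at 80% or more and -0.42 for those with every word shared. By pair, the members' median was -0.02 (CD71 sort), -0.13 (CD71/CD24a sort) and -0.36 (with DMOG), while that of all genes stayed between -0.02 and 0.01. Lower in all 3 pairs were 28 members (32.9%), against 21.2% of all genes. The genes of biogenesis had a median of 0.03 and the mitochondrial ribosomal proteins 0.02, with 0 called in either list. Ddit4, an inhibitor of mTORC1, rose, from 2.34 to 19.4 in the CD71 sort, from 3.09 to 12.2 in its CD71/CD24a counterpart and from 10.7 to 32.8 with DMOG, as the only call among 12 genes of TOP and mTORC1 control. Of 10 p53 axis genes, 1 was called: Cdkn1a, a cell cycle inhibitor, fell from 10.6 to 7.15, from 15.4 to 8.31 and from 19.4 to 9.73 in the same pairs. Among 19 partners and TOP genes, 16 escort proteins and 11 rescue genes 0 were called.

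Leaving out the CD71 pair brought many members past the threshold. Over the 4 CD71/CD24a libraries, limma called 40 of 85 members, against 12.3% of all genes. With Dex 35 fell (7.14% of all genes) and 5 rose (5.15%). Rpsa, a 40S protein, went from 60.9 to 42.7 with Dex alone and from 73.2 to 22.3 under DMOG, and Rps29 of the 40S subunit from 24.7 to 13.2 and from 35.9 to 11.3. Among those that fell were Rps27 (-1.44), Rps29 (-1.22), Rpl28 (-1.17) and Rpsa (-1.09), on the log2 scale. Among those that rose were Rpl24 (1.0), Rpl35a (0.51), Rpl22 (0.39) and Rpl7l1 (0.24). By shared coding sequence, 2 members rose and 2 fell of 19 under 80%, 1 and 12 of 32 at 80% or more, and 2 and 21 of 34 with all words shared. Without the CD71/CD24a pair, 4 members fell and 1 rose (1.51% of all genes, 0.367% and 1.14%). Without the pair with DMOG, 6 fell and 1 rose (2.55% of all genes, 0.986% and 1.56%). Each of these fits had 1 residual degree of freedom.

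By the size rule, Dex without DMOG in the CD71/CD24a sort had 1 of 85 members 2-fold lower, Rps27 (11.6 to 2.89), against 0.759% of all genes either way. Rps29 (-0.85) and Rpl28 (-0.81) were next lowest, and Rpl24 (0.46), Rpl35a (0.45) and Rps7 (0.33) highest. Under DMOG, 8 were lower and 1 higher, against 0.914% of all genes. Rpsa (-1.67) and Rps29 (-1.58) stood among the lowest, and Rpl24 (18.9 to 56.9, 1.54) and Rpl22 (147 to 228, 0.62) among the highest. These libraries had the deepest sequencing of the 9, at 40.1 M and 52.75 M reads.

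**Figure D5:**
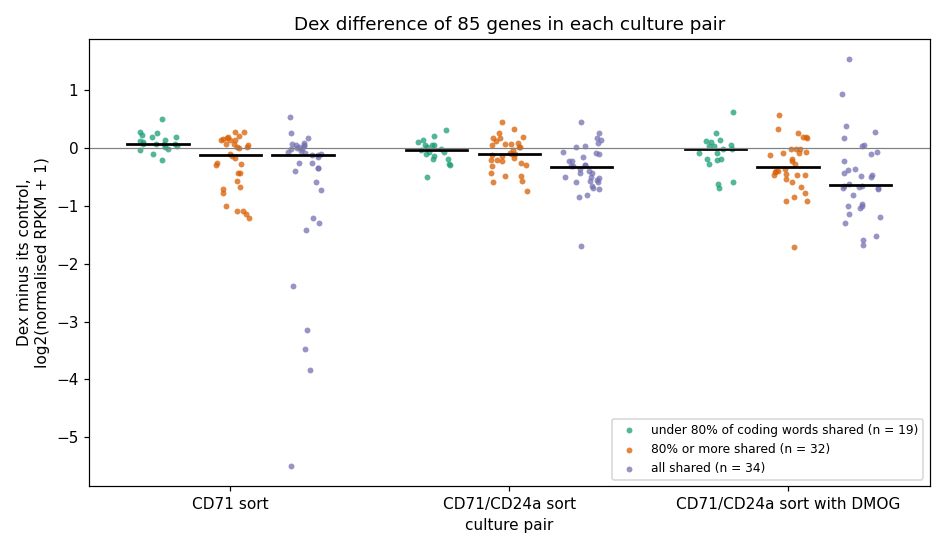
Dex minus its control on the scale of log2(normalised RPKM + 1) for the members in each of the 3 culture pairs, coloured by shared coding words. The median moves from -0.02 in the CD71 pair to -0.36 in the pair with DMOG, while single members of the CD71 pair reach -5.49 (Rps27).

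Whether the Dex difference depended on the sort was tested directly, in a comparison added after values were seen. limma called 31 of 85 members, against 6.03% of all genes, with 1 residual degree of freedom. With no filter on low values, 0 members and 0 genes passed. The CD71/CD24a pairs were those without and with DMOG. In 15 of the 31 members the difference was higher there (3.48% of all genes). These were led by Rps27 (4.05, SE 0.19), Rpl5 (3.17, SE 0.20), Rpl31 (3.0) and Rpl12 (2.99, SE 0.15). In 16 it was lower (2.55% of all genes), among them Rpl28 (-1.42) and Rps29 (-1.11). Of 19 members under 80% shared, 2 were called, Rps19bp1 and Rps4l. The model fits both libraries of the CD71 pair exactly. The residual spread behind the SEs and calls therefore comes from the CD71/CD24a pairs alone, with none from the CD71 pair. The CD71 pair is a single pair, so the sort and the CD71 sort water library cannot be told apart here.

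With DMOG no member passed the threshold. limma called 0 of 85 members, against 0.021% of all genes, and 11 members (12.9%) had an unadjusted p under 0.05, against 347 genes (3.64%). The members' median was 0.00, as was that of all genes. Rps21, a small 40S protein, came closest (76.7 and 80.3 without DMOG, 107 and 110.2 with it, log2 difference 0.46, SE 0.087, adjusted p = 0.45 by limma). The interaction, the Dex difference with DMOG minus the common Dex difference of the 2 pairs without it, called 0 of 85 members and 0 of 9535 genes by limma. At an unadjusted p under 0.05 there were 25 members (29.4%) and 275 genes (2.88%). These members were 2 of 19 under 80% shared, 7 of 32 at 80% or more and 16 of 34 with every word shared. The pairs without DMOG include the CD71 sort water library. Rpsa had the lowest adjusted p, 0.22 by limma, with a log2 difference of -1.25 (SE 0.19).

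Between the sorts, as the CD71/CD24a pair without DMOG minus the CD71 pair in the same model, limma called 44 of 85 members, against 54.2% of all genes, so the members' share is near the background. In the CD71/CD24a sort 29 were lower and 15 higher, against 25% and 29.1% of all genes. Without scaling factors the split was 25 lower and 22 higher, and with no filter on low values 0 members were called. Fau (-3.11, SE 0.38), Rpl29 (-2.02), Rps10 (-1.89), Rpl37a (-1.87), Rpl7a (-1.82), Rplp1 (-1.80), Rpl37 (-1.77), Rps16 (-1.58), Rpl32l (-1.55) and Rplp2 (-1.46) were lowest. Rpl9 (1.26, SE 0.20), Rpl22l1 (1.20), Rps23 (1.04), Rps28 (0.93), Rpl22 (0.85), Rpl23 (0.83), Rpl15 (0.77), Rps6 (0.64), Rpl30 (0.56) and Rpl13a (0.53) were highest. Rplp0 was also lower (-0.93), so all 3 stalk proteins were called in the same direction. In the 2 water arms alone, 4 members were 2-fold higher and 21 lower in the CD71/CD24a sort, against 1.44% and 3.07% of all genes (4.51% either way). Fau (223 to 13.4, -3.96), Rps27 (151 to 11.6, -3.59) and Rpl12 (482 to 40.9, -3.53) stood lowest, and Rps23 (8.14 to 22.7, 1.37), Rpl9 (5.44 to 15.3, 1.34) and Rpl22l1 (29.8 to 66.4, 1.13) highest. The sort cannot be told apart from how the 2 sets of libraries and files were made. The 4 CD71/CD24a files list 1 where the others list 0. With exact 1 kept as deposited, the same 44 members were called and 0 changed sign.

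Paralogs of ribosomal proteins ran from near 0 to abundant. Rpl36al, a paralog of Rpl36a, ran from 71.6 in Ter119+ to 165 in fresh BFU-E, above Rpl36a itself in every library (3.28 to 29.2). Rps27l, a p53 target related to Rps27, ran from 43.1 to 121, and Rpl7l1 from 19.3 to 100.2, both lowest in Ter119+. Rps4l ran from 15.9 to 70.7 and Rpl32l from 3.78 to 27.1. Rps19bp1, which binds Rps19, ran from 18 to 49.2. Rpl39l, Rpl3l and Rps23rg1 were below the level required for the limma fit, Rpl39l reaching 1.10 in CFU-E and Rpl3l 0.131 in Ter119+. Rpl10l and Rpl26l1 were not analysed here. Levels of a member and of its paralog are uncertain where their coding words are shared, as in Rpl36a, with every word, and Rpl36al, with 88.9%.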

How the data were processed

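Values were RPKM per RefSeq transcript record, computed and deposited by the authors (on mm9, as the submitters' processing notes list it). Aligner, counter and handling of multiple matches are not given in the sources used here. In the 4 CD71/CD24a files no value was 0 and 5954 to 7412 were exactly 1, which was read as 0. Symbols came from RefSeq (22393 of 23041 records) and GENCODE (118), and the record with the highest mean stood for a name. Each library was divided by a median-ratio factor over 6888 genes (0.419 for Ter119+, 1.02 to 1.18 for the others). Depth was recovered from the steps of low values, of which 66.9% to 69.9% were whole within 0.1 reads, against 20% by chance. Interval reads use coding length. Word sharing used 32-base words of GENCODE transcripts (GRCm38).

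The 6 cultured libraries were fitted in limma 3.58.1, with empirical Bayes and a trend, on log2(normalised RPKM + 1), for genes with a mean of at least 1, with culture pair and Dex as terms, 2 residual and 4.31 prior degrees of freedom. The pairing comes from the labels' protocols, which divide each sort's cells between arms. The fit was tested on simulated data with known changes. Named were members called (up to 10 a direction), the 3 highest and lowest of each 1-against-1 comparison, and members with known roles, paralogs and extreme levels. Some members that this rule names are not reported here. Members and lists were chosen with earlier results of these data known.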

Additional observations from a re-analysis of the deposited data

Results flagged for a closer look

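Dex differences between the 2 sorts were tested by limma on the scale of log2(normalised RPKM + 1), in a comparison added after values were seen. The mean difference of the CD71/CD24a pairs, 1 of them with DMOG in both arms, was taken minus that of the CD71 pair. At an adjusted p under 0.05 by limma, 31 of 85 members passed, against 6.03% of all genes (3.48% higher, 2.55% lower). In the large subunit the difference was higher in the CD71/CD24a pairs for Rpl5 (3.17), Rpl31 (3.0), Rpl12 (2.99), Rpl21 (1.47), Rpl37a (1.13), Rpl3 (1.09), Rpl23a (1.02), Rpl35 (0.71) and Rpl7 (0.66). In the small subunit it was higher for members that include Rps27 (4.05), Fau (1.63), Rps3a1 (1.16), Rps24 (0.70) and Rps19 (0.63). It was lower in the large subunit for members that include Rpl28 (-1.42), Rpl36a (-0.84), Rpl18 (-0.83), Rpl37 (-0.81), Rpl13 (-0.70), Rpl26 (-0.65), Rpl38 (-0.54) and Rpl10a (-0.45). It was lower in the small subunit for Rps29 (-1.11), Rps23 (-0.81), Rps16 (-0.67), Rps18 (-0.64) and Rps27a (-0.59), and also for Rps19bp1 (-0.69) and Rps4l (-0.68). By shared coding sequence, 0 were higher and 2 lower of 19 members under 80%. The counts were 7 and 5 of 32 at 80% or more, and 8 and 9 of 34 with all words shared. The CD71 sort is a single pair, and the test had 1 residual degree of freedom. Both libraries of that pair are fitted exactly, so the calls hold no spread of the CD71 pair. The sort and the CD71 sort water library cannot be told apart here. With no filter on low values the test called 0 members and 0 genes.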

How the results depend on the processing

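The call of Rpl39 under Dex was kept with no scaling factors, with factors made without members or shared genes, with a pseudocount of 0.1, with exact 1 kept as deposited and without the trend. With no replicate block, and with no filter on low values, limma called 0 members. Leaving out a pair gave 5 called members for Dex without the CD71/CD24a pair (1.51% of all genes) and 7 without the pair with DMOG (2.55%). Without the CD71 pair it gave 40 (12.3%). For DMOG and the sorts, leaving out a library leaves 1 library on a side, so no count of calls is given. With no filter 0 members were called for the sorts and 0 for Dex by sort, where 19840 genes lowered the prior degrees of freedom to 0.645 to 0.655. Fits of the interaction and of Dex by sort without a library could not be made, for lack of residual degrees of freedom.

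Keeping members under 80% shared left 0 of 19 called for Dex (2.02% of all genes), 10 for the sorts (54.2%) and 2 for Dex by sort (6.03%). At 2-fold, it left 0 of 20 for CFU-E against BFU-E (15.6% of all genes) and 4 of 20 for Ter119+ against CFU-E (51.4%). Of 19, it left 2 for CD71 sort water against fresh BFU-E (15.3%) and 4 between the water arms (4.51%). For Dex it left 0 in each of the 3 pairs (2.25%, 0.759% and 0.914%). Under 10% shared, with 2 members tested, 1 was called for Dex by sort and 0 in every other comparison. A pseudocount of 0.1 gave 7 members at 2-fold for CFU-E against BFU-E. No scaling factors gave 82 for Ter119+ against CFU-E, where 5606 genes in all were 2-fold lower. The median rank correlation of shared sequence with level moved from -0.776 to -0.317 over whole transcripts, to -0.520 over all members and to -0.162 with both changes.

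Each condition is a single library, with 11.85 M reads in CD71 sort water and 12.9 M to 52.75 M in the others, which sets the counting error. Among the members still called for Dex, the sorts and Dex by sort under an alternative, 0 changed sign.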
